A study of Mus musculus with 18 samples.

Results

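The de novo fatty acid synthesis genes described here are 10 of the 12019 genes in the authors' deposited table, chosen by gene symbol. The set holds a transcription factor and enzymes of acetyl-CoA and NADPH supply, malonyl-CoA and palmitate synthesis, elongation and desaturation. The 10 genes are Srebf1, Acly, Acss2, Me1, Acaca, Acacb, Fasn, Elovl6, Elovl5 and Scd1. All 10 have a group mean, a log2 fold change and an adjusted p-value in every comparison. RNA came from whole livers of C57BL/6J mice that entered the study at 21 weeks of age and were kept on their regime for 8 weeks. The groups are 30% caloric restriction, the compounds rapamycin (42 mg/kg/day), metformin (given at 37.5 mg/kg/day) and TM5614 (20 mg/kg/day), each mixed into the chow, and free feeding (ad libitum). The labels list 3 libraries for each intervention and 6 for ad libitum, and state neither sex nor feeding state or hour at collection. Rapamycin inhibits the kinase mTOR, metformin is a biguanide that lowers blood glucose, and TM5614 is an inhibitor of the plasminogen activator inhibitor PAI-1.

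De novo lipogenesis builds fatty acids from surplus carbohydrate, and the fed liver is one of its main sites. ATP citrate lyase and a cytosolic acetyl-CoA synthetase supply acetyl-CoA, acetyl-CoA carboxylase turns it into malonyl-CoA, and fatty acid synthase joins these units into palmitate with NADPH as the reductant. Elongases and a desaturase then extend and unsaturate the product before it enters triglycerides and phospholipids. Insulin and sterols act on the pathway through the membrane-bound factor SREBP1, which must be cleaved before it can activate its target genes, so that the level of its mRNA is not a measure of its activity.

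The values are group means of normalized counts, with no value per library, so that no standard deviation is given and whether the mice of 2 groups overlap cannot be shown. The smallest ad libitum means above 0 (0.315, 0.338 and 0.350 normalized counts) were of the size found in the groups of 3 libraries (0.299 to 0.398), and which libraries stand behind the ad libitum mean is not known. The liver label was met: the 8 hepatocyte markers summed to 1235699 normalized counts under caloric restriction, 894298 under rapamycin, 1047113 under metformin, 987203 under TM5614 and 972653 in ad libitum livers. Adipocytes express the same synthesis genes, and their 8 markers, none of them at 0, summed to 2227, 1651, 1983 and 1920 normalized counts in the same order of interventions and to 1412 in ad libitum livers. No adipocyte marker passed in any comparison. Of the hepatocyte markers, 3 rose (Alb, Apob and Trf) and 2 fell (Ttr and Fabp1) under caloric restriction. The 10 macrophage markers summed to 896 normalized counts under caloric restriction, 1443 under rapamycin, 1297 under metformin, 1372 under TM5614 and 1892 in ad libitum livers. Marco alone had between 27.3 and 44.5 in the intervention groups and 261 in ad libitum livers, and it has no adjusted p in any comparison. C1qa, C1qb, C1qc and Cd5l fell under caloric restriction. The 8 sinusoidal endothelial markers summed to 1457 under caloric restriction, 1008 under rapamycin, 1122 under metformin, 1456 under TM5614 and 1606 in ad libitum livers, and Stab1 and Stab2 fell under rapamycin. The 8 stellate markers summed to 2092 under caloric restriction, 1627 under rapamycin, 1803 under metformin, 1902 under TM5614 and 2008 in ad libitum livers. Lrat fell under caloric restriction, where 4 of the 8 had log2 fold changes below 0 and 4 above 0. The 7 pancreatic acinar markers in the table summed to between 2.49 and 4.59 in the intervention groups, where 5 or 6 of them were at 0, and to 304 in ad libitum livers, and Cela2a passed as lower under caloric restriction and TM5614. Among all genes with an adjusted p, 9.24% passed as lower and 9.74% as higher under caloric restriction. Under rapamycin 0.675% passed as lower, and under TM5614 1.95%. The part of these cells in the results below was not tested. In whole tissue, fewer cells of a type and less RNA per cell cannot be told apart.

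Caloric restriction lowered 9 of the 10 synthesis genes, TM5614 lowered 3, rapamycin raised 2, and none passed under metformin. A gene counts as called where the authors' deposited table lists an adjusted p under 0.05 for it. Among all genes with an adjusted p there, 9.24% were called lower and 9.74% higher under caloric restriction. For TM5614 these shares were 1.95% and 2.01%, for rapamycin 0.675% and 0.714%, and for metformin 0.0816% and 0.163%. The 10 genes were chosen with earlier results of these data known, so the shares beside them are a description and not a test. The median log2 fold change of the 10 genes was -1.32 under caloric restriction, 0.067 under rapamycin, 0.015 under metformin and -0.40 under TM5614 in the authors' deposited table. Over the 11201 genes whose mean reached 10 normalized counts, the medians in the same order were 0.015, 0.0079, 0.0093 and -0.0079 in the authors' deposited table. Fasn, Acly and Elovl5 were the 3 genes called lower both under caloric restriction and under TM5614. These comparisons share the ad libitum group, so their calls are not independent.

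**Figure D1:**
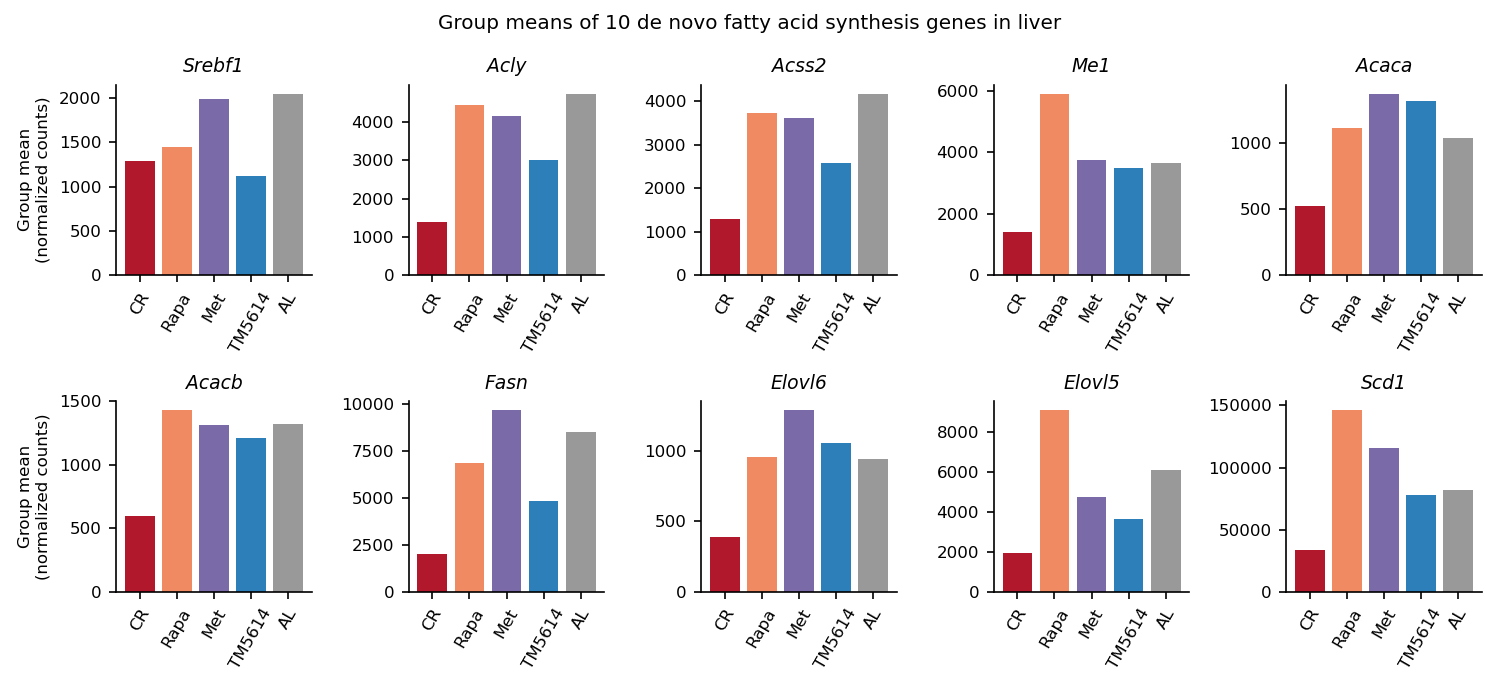
Group means of each synthesis gene in normalized counts (linear axes from 0, a scale for each gene) under caloric restriction (CR), rapamycin (Rapa), metformin (Met) and TM5614 and in ad libitum livers (AL); bars have no error because no value per library was used. The caloric restriction bar is the lowest in every panel but that of Srebf1, whose lowest mean, 1114, is that of TM5614.

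The promoter windows of these 3 genes are shown because they are the members called lower in both comparisons. Each runs from 250 bases before to 50 bases after the start site in RefSeq, build GRCm38.p6, 5′ to 3′ on the strand of the gene. Capitals mark matches, on either strand, to the NF-Y box CCAAT, the GC box GGGCGG and the E-box CACGTG. The Fasn window is chr11:120824498-120824797 on the minus strand, the Acly window chr11:100527951-100528250 on the minus strand, and the Elovl5 window chr9:77917115-77917414 on the plus strand.
Fasn: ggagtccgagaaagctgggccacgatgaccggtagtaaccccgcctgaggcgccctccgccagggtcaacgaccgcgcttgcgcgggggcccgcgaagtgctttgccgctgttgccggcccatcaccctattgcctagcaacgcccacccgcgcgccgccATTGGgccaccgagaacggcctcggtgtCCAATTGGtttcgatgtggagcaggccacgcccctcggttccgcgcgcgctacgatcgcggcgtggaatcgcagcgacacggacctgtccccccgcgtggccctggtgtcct
Acly: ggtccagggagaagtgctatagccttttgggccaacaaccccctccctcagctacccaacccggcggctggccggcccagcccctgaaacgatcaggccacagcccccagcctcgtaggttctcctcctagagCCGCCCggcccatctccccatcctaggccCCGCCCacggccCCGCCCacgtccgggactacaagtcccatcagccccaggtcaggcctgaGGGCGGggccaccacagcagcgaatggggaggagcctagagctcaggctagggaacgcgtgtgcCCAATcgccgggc
Elovl5: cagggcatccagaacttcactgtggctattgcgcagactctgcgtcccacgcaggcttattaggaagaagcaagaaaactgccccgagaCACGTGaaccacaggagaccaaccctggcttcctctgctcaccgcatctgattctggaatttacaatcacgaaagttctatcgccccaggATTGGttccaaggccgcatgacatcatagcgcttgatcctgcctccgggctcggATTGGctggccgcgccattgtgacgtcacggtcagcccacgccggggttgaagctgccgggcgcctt

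The Fasn window holds 3 NF-Y boxes, which begin 90, 62 and 59 bases before the start site, and the last pair overlaps. The Elovl5 window holds 2 NF-Y boxes, 71 and 17 bases before the start, and an E-box 161 bases before it. The Acly window holds 4 GC boxes and 1 NF-Y box, and that NF-Y box begins at base 38 of the transcript. RefSeq windows were found for 9 of the 10 genes, 12 windows in all, and Scd1 has none in the table used. An NF-Y box stands in 8 of the 12 windows and in 37.4% of the 32851 windows of all genes. A GC box stands in 5 of 12 and in 35.7%, and the E-box in 1 of 12 and in 7.15%. Srebf1 has 3 of the 12 windows and Me1 has 2. Counted by gene, an NF-Y box stands in 7 of the 9 and a GC box in 4. The sterol regulatory element written TCACNCCAC stands in none of the 12 and in 1.24% of all windows. Only this spelling was searched, so other forms of the element would be missed. A match to letters is a description of the window and does not show that a factor binds there.

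Srebf1, which encodes the regulator SREBP1, was the 1 member not called in any comparison, and the 1 member whose lowest mean was not that of caloric restriction. The gene lies on chromosome 11 from 60199089 to 60222581 (mm10, annotation GENCODE vM21, as for the other 9, all protein-coding). Its group mean was 1294 normalized counts under caloric restriction, 1448 under rapamycin, 1992 under metformin, 1114 under TM5614 and 2050 in ad libitum livers. The means under TM5614 and caloric restriction thus stood at 54.4% and 63.1% of the ad libitum mean. Its log2 fold change in the authors' deposited table was -0.88 for TM5614 (adjusted p = 0.0573) and -0.66 for caloric restriction (adjusted p = 0.0927). Both missed the threshold, as did -0.50 for rapamycin (adjusted p = 0.526) and -0.042 for metformin (adjusted p = 0.998) according to the authors' deposited table. The count covers the whole gene, so the transcripts of its alternative start sites are not told apart.

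Acly and Acss2, the suppliers of cytosolic acetyl-CoA, had nearly the same pattern over the groups. Acly encodes ATP citrate lyase, which splits citrate exported from mitochondria, and lies on chromosome 11 from 100476353 to 100528000. Its mean was 1379 normalized counts under caloric restriction, 4454 under rapamycin, 4172 under metformin, 2999 under TM5614 and 4747 in ad libitum livers. Acly fell under caloric restriction, 3.44-fold (log2 fold change -1.78, adjusted p = 5.25e-22), and under TM5614, 1.58-fold (-0.66, adjusted p = 0.00932) according to the authors' deposited table. Acss2 encodes the synthetase that makes acetyl-CoA from free acetate and lies on chromosome 2 from 155517948 to 155585724. The Acss2 mean was 1298 under caloric restriction, 3730 under rapamycin, 3612 under metformin, 2580 under TM5614 and 4178 in ad libitum livers. Acss2 fell 3.22-fold under caloric restriction (log2 fold change -1.69, adjusted p = 7.42e-10) according to the authors' deposited table. Under TM5614 it had a log2 fold change of -0.70, slightly more negative than that of Acly, with an adjusted p of 0.0820 that did not pass, per the authors' deposited table. Of the exon bases of Acss2, 3.89% are shared with Gss on the opposite strand, and the strand setting of the counting is not given in the sources used here.

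Me1 encodes cytosolic malic enzyme, a source of NADPH for the synthase, and was called in both directions, lower under caloric restriction and higher under rapamycin. It lies on chromosome 9 from 86581371 to 86695953. The mean was 1415 normalized counts under caloric restriction, 5904 under rapamycin, 3754 under metformin, 3497 under TM5614 and 3649 in ad libitum livers. The rapamycin mean was the highest of the 5, and those of metformin and TM5614 stood at 103% and 95.8% of the ad libitum mean. In the authors' deposited table the log2 fold change was -1.37 under caloric restriction (adjusted p = 6.21e-10) and 0.69 under rapamycin (adjusted p = 0.0421).

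Acaca and Acacb encode the acetyl-CoA carboxylases, of which the first makes malonyl-CoA in the cytosol for synthesis and the second makes it at the outer mitochondrial membrane, where it restrains fatty acid import. Both fell under caloric restriction, and neither passed under any compound. Acaca, on chromosome 11 from 84129672 to 84401651, had means of 526 normalized counts under caloric restriction, 1118 under rapamycin, 1376 under metformin, 1316 under TM5614 and 1041 in ad libitum livers. Acacb, on chromosome 5 from 114146535 to 114250761, had means of 598 under caloric restriction, 1430 under rapamycin, 1314 under metformin, 1212 under TM5614 and 1324 in ad libitum livers. The fall under caloric restriction was 1.98-fold for Acaca (log2 fold change -0.98, adjusted p = 2.13e-04) and 2.21-fold for Acacb (-1.15, adjusted p = 0.00220) according to the authors' deposited table. Acaca stood above ad libitum in each of the 3 compound groups, at 107% to 132%, without passing in any of them. Its log2 fold change under TM5614, 0.34 (adjusted p = 0.436), had the opposite sign to those of Acly and Fasn in the authors' deposited table.

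Fasn encodes fatty acid synthase, the enzyme that assembles palmitate, and had the largest fall of the 10 genes under caloric restriction. It lies on chromosome 11 from 120805846 to 120824547. Its mean was 1990 normalized counts under caloric restriction, 6858 under rapamycin, 9678 under metformin, 4832 under TM5614 and 8505 in ad libitum livers. The fall was 4.27-fold under caloric restriction (log2 fold change -2.10, adjusted p = 1.26e-16) and 1.76-fold under TM5614 (-0.82, adjusted p = 0.0216) according to the authors' deposited table. Of the 12018 genes with a log2 fold change, 95 had a lower value than Fasn under caloric restriction and 385 had one under TM5614, among them genes with low counts. Rapamycin (-0.31, adjusted p = 0.685) and metformin (0.19, adjusted p = 0.980) did not pass for Fasn in the authors' deposited table.

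The elongases Elovl6 and Elovl5 both fell under caloric restriction and had log2 fold changes of opposite sign under metformin and under TM5614. Elovl6 extends palmitate to stearate, while Elovl5 acts mainly on polyunsaturated fatty acids. Elovl6, on chromosome 3 from 129532355 to 129638495, had means of 388 normalized counts under caloric restriction, 957 under rapamycin, 1287 under metformin, 1056 under TM5614 and 937 in ad libitum livers. Elovl5, on chromosome 9 from 77917364 to 77984519, had means of 1916 under caloric restriction, 9081 under rapamycin, 4733 under metformin, 3653 under TM5614 and 6082 in ad libitum livers. Under caloric restriction the log2 fold change in the authors' deposited table was -1.27 for Elovl6 (adjusted p = 5.34e-05) and -1.67 for Elovl5 (adjusted p = 3.22e-13). Under TM5614 Elovl5 fell 1.66-fold (-0.74, adjusted p = 0.0203), and Elovl6 had 0.17 (adjusted p = 0.792) according to the authors' deposited table. Elovl5 had its highest mean under rapamycin, 149% of ad libitum, with a log2 fold change of 0.58 and an adjusted p of 0.160 that did not pass, per the authors' deposited table. The difference between these elongases in any comparison was not tested.

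Scd1 encodes stearoyl-CoA desaturase, which makes oleate from stearate, and was by far the most abundant of the 10 transcripts. It lies on chromosome 19 from 44394455 to 44407879. The mean was 33750 normalized counts under caloric restriction, 146272 under rapamycin, 115518 under metformin, 78044 under TM5614 and 81821 in ad libitum livers. As a share of the summed group means, Scd1 made up 0.403% under caloric restriction, 1.84% under rapamycin, 1.39% under metformin, 1.0% under TM5614 and 1.05% in ad libitum livers. It fell under caloric restriction (log2 fold change -1.28, adjusted p = 3.85e-06) and rose 1.79-fold under rapamycin (0.84, adjusted p = 0.0433) according to the authors' deposited table. With metformin the value was 0.50 (adjusted p = 0.775), and with TM5614 it was -0.068 (adjusted p = 0.921) according to the authors' deposited table. Beside the rapamycin calls of Me1 and Scd1, all 8 sinusoidal endothelial markers had log2 fold changes below 0 (median -0.73) and Stab1 (-0.72, adjusted p = 0.00756) and Stab2 (-0.90, adjusted p = 0.0293) fell, from the authors' deposited table, and their part was not tested. Beside the metformin values stands a larger share of the ribosomal RNA precursor Rn45s, 4.40% of the summed means under metformin and 0.227% in ad libitum livers, whose part in them was not tested.

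**Figure D2:**
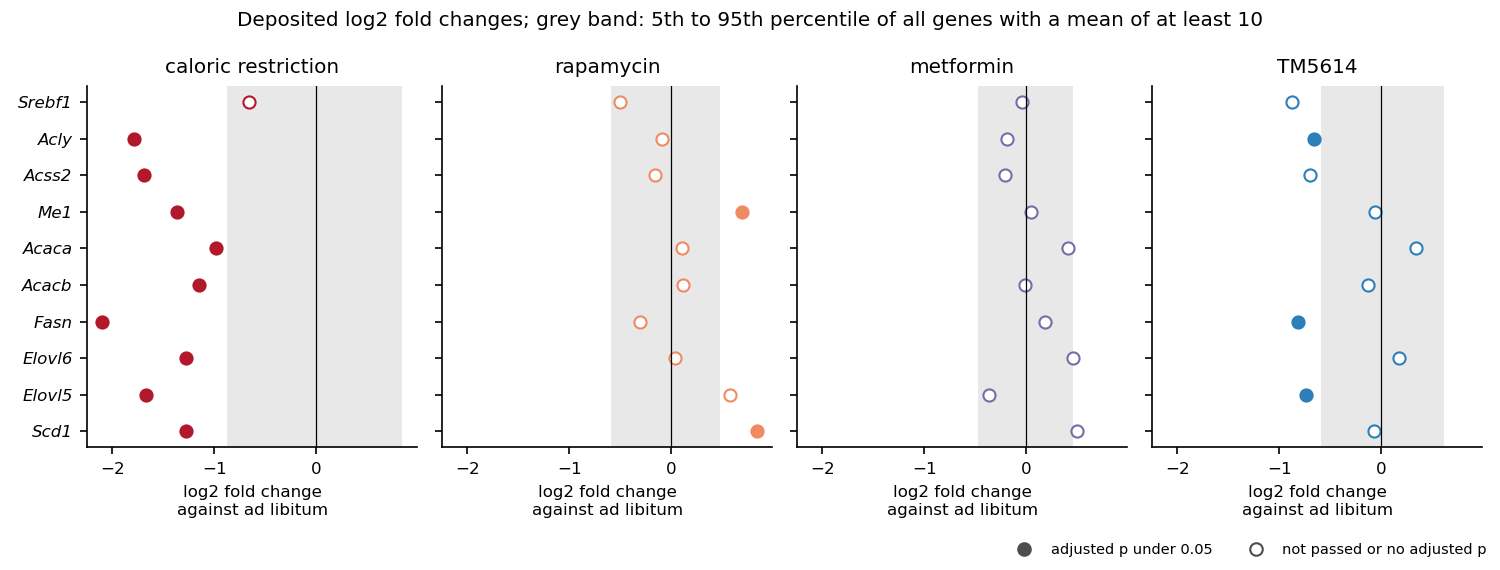
The authors' deposited log2 fold changes against ad libitum (x axis) for the 10 synthesis genes (rows) in the 4 comparisons; filled points passed at an adjusted p under 0.05, open points did not, and the grey band spans the 5th to 95th percentile of the 11201 genes whose mean reached 10. Under caloric restriction 9 points lie below the band, which begins at -0.86, and under rapamycin the 2 filled points, Me1 and Scd1, lie above 0.47, its upper end. The open rapamycin point of Elovl5 (0.58) lies above that end as well. Under metformin the open points of Scd1 (0.50) and Elovl6 (0.46) lie above the upper end, 0.45. Under TM5614 the open points of Srebf1 (-0.88) and Acss2 (-0.70) lie below the lower end, -0.58, as do the filled points.

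The means of the 10 genes are set against ad libitum for each intervention here, and differences between interventions were not tested. Under caloric restriction all 10 means lay below ad libitum, at 23.4% (Fasn) to 63.1% (Srebf1) of it, and 8 of them under 50%. Under TM5614 the means spread into 5 genes at 54.4% to 63.2% of ad libitum (Srebf1, Fasn, Elovl5, Acss2 and Acly) and 5 at 91.6% to 127% (Acacb, Scd1, Me1, Elovl6 and Acaca). This division was made after the values were seen, and of the lower 5 genes Srebf1 and Acss2 did not pass. Under rapamycin the range was 70.6% (Srebf1) to 179% (Scd1), and under metformin 77.8% (Elovl5) to 141% (Scd1). The highest of the 5 means was in the rapamycin group for Me1, Acacb, Elovl5 and Scd1, in the metformin group for Acaca, Fasn and Elovl6, and in ad libitum livers for Srebf1, Acly and Acss2. Of the means above ad libitum, those of Me1 and Scd1 under rapamycin passed and the others did not, and neighbours in these orders cannot be ranked against the spread between mice.

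Genes of the set can be compared in level only per length, and this was done with normalized counts per kb of annotated exon. In ad libitum livers the order was Scd1 (16725), Elovl5 (1727), Me1 (948), Acly (899), Fasn (777), Acss2 (411), Srebf1 (364), Elovl6 (146), Acacb (137) and Acaca (60.9 normalized counts per kb). The order was the same under rapamycin and TM5614. Fasn and Acly changed places under metformin, with 884 and 790. Under caloric restriction Srebf1 (230) stood above Fasn (182) and Acss2 (128), and Acacb (62.1) above Elovl6 (60.3). Scd1 accounted for 78.7% of the summed level per kb under caloric restriction, 82.0% under rapamycin, 82.2% under metformin, 80.9% under TM5614 and 75.4% in ad libitum livers. Without Scd1 the summed level per kb was 1865 under caloric restriction, 6570 under rapamycin, 5120 under metformin, 3774 under TM5614 and 5471 in ad libitum livers. Exon lengths join all annotated transcripts of a gene, which lowers the level per kb of genes with many isoforms such as Acaca (17.1 kb).

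**Figure D3:**
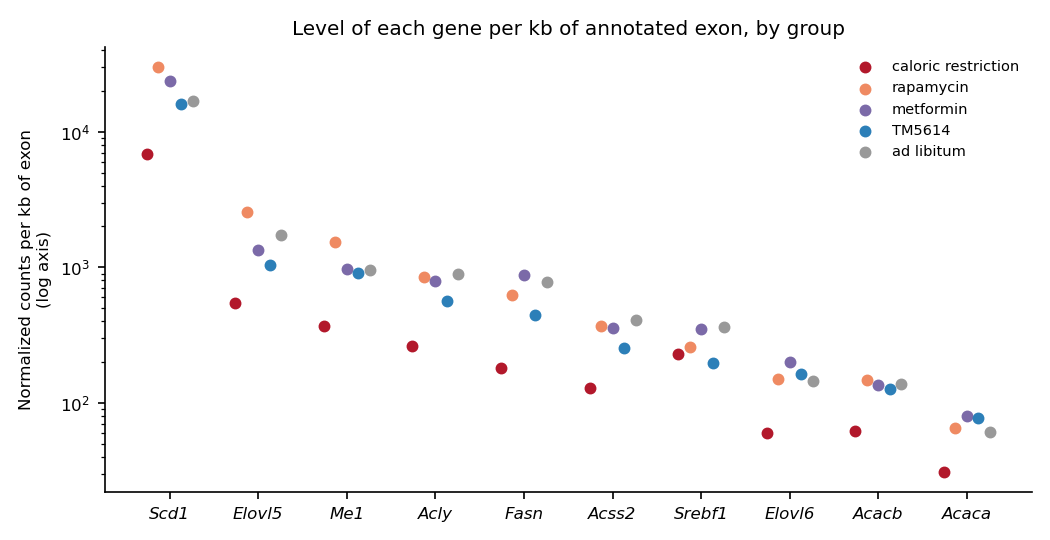
Level of each synthesis gene in normalized counts per kb of annotated exon (log axis), genes ordered by their ad libitum level, with 1 point for each group mean. Scd1 stands above all other members in every group, and the caloric restriction points are the lowest except for Srebf1.

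Of the 89 genes of 7 neighbouring lists found in the table, 16 (18%) were called lower and 14 (15.7%) higher under caloric restriction, beside 9.24% and 9.74% of all genes. No difference between lists was tested. Of 11 other suppliers of acetyl-CoA, citrate and NADPH in the table, 5 fell, 3 rose and 3 did not pass (median log2 fold change -0.29 in the authors' deposited table). Pgd, an NADPH-yielding enzyme of the pentose phosphate pathway, had means of 223 normalized counts under caloric restriction and 514 in ad libitum livers (log2 fold change -1.21, adjusted p = 3.85e-13, from the authors' deposited table). The others named by rule were the pyruvate dehydrogenase subunit Pdhb (-0.57), the NADPH-yielding Idh1 (-0.51) and the mitochondrial citrate carrier Slc25a1 (-0.48), with falls in the authors' deposited table. Outside that rule, the 3 that rose were Slc2a2 (0.39), the pyruvate dehydrogenase subunit Pdha1 (0.34) and Pcx (0.32) in the authors' deposited table. Of 20 other regulators 2 fell, Pparg (-0.60, adjusted p = 0.0376) and the SREBP escort Scap (-0.54, adjusted p = 0.00211), and 18 did not pass (median -0.12), in the authors' deposited table. Among 10 carbohydrate-responsive genes the pyruvate kinase gene Pklr (-1.06) and the transketolase gene Tkt (-0.29) fell, Txnip (1.85) rose and 7 did not pass (median 0.023) in the authors' deposited table.

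Of 12 other elongation and desaturation enzymes in the table, 2 fell, 1 rose and 9 did not pass under caloric restriction (median log2 fold change -0.064 in the authors' deposited table). Elovl3, an elongase of saturated and monounsaturated very long chains, had means of 71.2 normalized counts under caloric restriction and 2672 in ad libitum livers (log2 fold change -5.23, adjusted p = 1.44e-21, from the authors' deposited table). Hsd17b12, the ketoacyl reductase of the elongation cycle, fell (-0.79) and the desaturase gene Fads2 rose (0.56) in the authors' deposited table. Of the 7 genes of mitochondrial fatty acid synthesis, a separate pathway, Acsf3 fell (-0.44, adjusted p = 0.0113) and 6 did not pass (median -0.22) in the authors' deposited table. Of 16 genes of fatty acid activation and triglyceride assembly 5 rose, 3 fell and 8 did not pass (median over 15 of them with a mean of at least 10, 0.35 in the authors' deposited table). The glycerol-phosphate acyltransferase gene Gpat3, listed as Agpat9, had means of 313 under caloric restriction and 71.8 in ad libitum livers (2.13, adjusted p = 7.39e-07, from the authors' deposited table). Lpin2 (0.72) and Dgat2 (0.58), of the last steps to triglyceride, rose as well, and the acyl-CoA synthetase gene Acsl5 fell (-1.17) in the authors' deposited table. Outside the naming rule, Gpat4, listed as Agpat6 (0.56), and Agpat3 (0.49) also rose in the authors' deposited table. Agpat2 (-0.51) and Mogat1 (-1.91) fell there. Mogat1 had means of 2.65 normalized counts under caloric restriction and 9.67 in ad libitum livers. Of 13 droplet and uptake genes 4 rose, 1 fell and 8 did not pass (median 0.60), with rises of the perilipins Plin5 (1.37) and Plin4 (1.10) and of Vldlr (1.13) and a fall of Fabp1 (-1.23) in the authors' deposited table. Vldlr reached the mean of 50 that naming required through the caloric restriction group alone, with 62.3 normalized counts there and 28.3 in ad libitum livers.

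**Figure D4:**
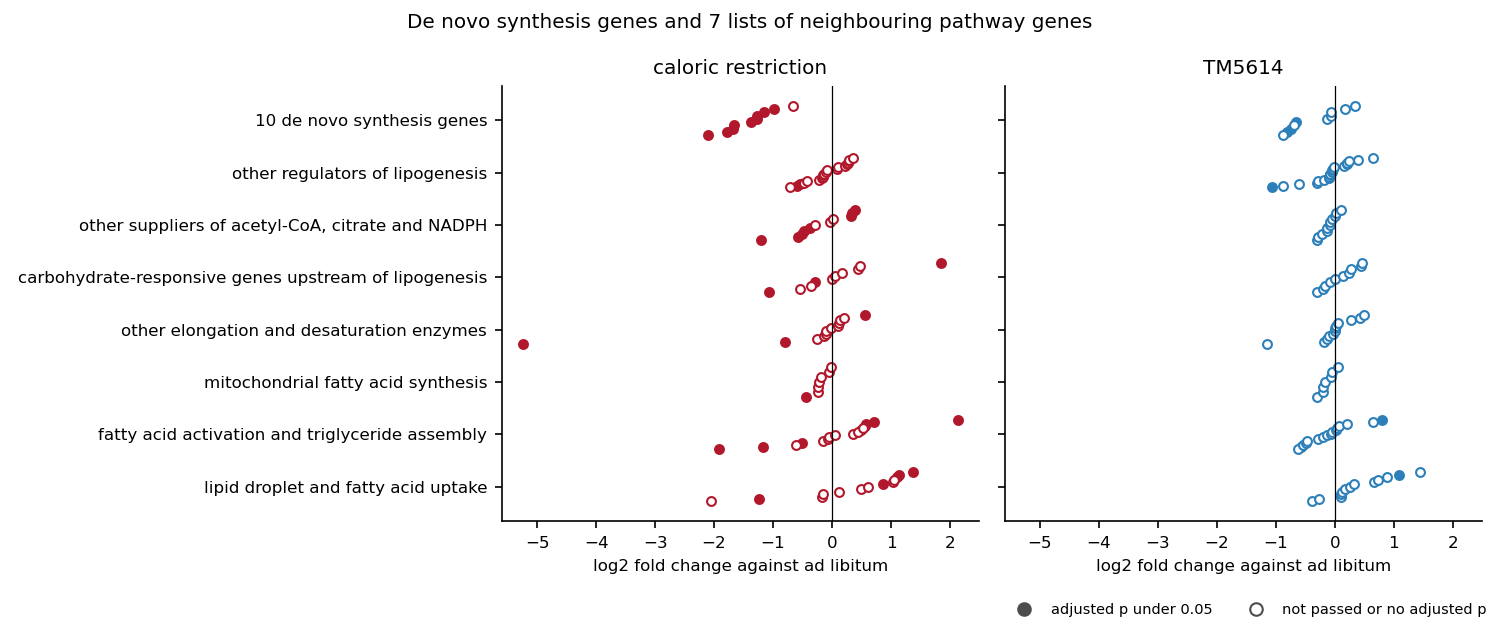
The authors' deposited log2 fold changes against ad libitum (x axis) for the 10 synthesis genes and for the genes of 7 neighbouring lists (rows), under caloric restriction on the left and TM5614 on the right; filled points passed at an adjusted p under 0.05. All 10 synthesis genes lie below 0 under caloric restriction, where the neighbouring lists, apart from the 7 mitochondrial synthesis genes, hold points on both sides of 0.

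Of the same 89 genes, 2 (2.25%) were called lower and 2 (2.25%) higher under TM5614, beside 1.95% and 2.01% of all genes. Under rapamycin 1 (1.12%) was called lower and 3 (3.37%) higher, beside 0.675% and 0.714%. With TM5614 the called genes were Insig2, which holds the SREBP escort in the endoplasmic reticulum, Acsl4, Agpat2 and Plin4. Insig2 had means of 1123 normalized counts under TM5614 and 2356 in ad libitum livers (log2 fold change -1.07, adjusted p = 0.00183, from the authors' deposited table). The values of Acsl4, Agpat2 and Plin4 under TM5614 were 0.81, -0.58 and 1.09 in the authors' deposited table. With rapamycin, Pdha1 (0.34) and Idh1 (0.22) rose among the 11 suppliers, and the fatty acid transporter gene Cd36 (0.70, adjusted p = 0.0433) rose and Plin3 (-0.51) fell among the 13 droplet and uptake genes, in the authors' deposited table. Metformin lowered Lpin2 (-0.99, adjusted p = 0.0177, from the authors' deposited table) and no other gene of the 7 lists, and it raised none. That is 1.12% called lower and 0% higher, beside 0.0816% and 0.163% of all genes. Of the 89 genes of these lists found in the table, 11 have no adjusted p for metformin.

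Acly and Acss2 were the most alike pair of members, at a distance of 0.127 between their 4 log2 fold changes (the square root of the summed squared differences), followed by Acaca and Elovl6 at 0.346 and by Me1 and Scd1 at 0.487. Srebf1 was the farthest from the median of the members, at 0.998, and its nearest member, Acacb, was 1.08 away. Outside the set, 8526 genes with an ad libitum mean of at least 50 were compared with the median of the 10 genes. The nearest were Elp4, at a distance of 0.165, Psmb9, a subunit of the immunoproteasome, at 0.187, Acsl5, at 0.198, Nudt1, which hydrolyses oxidized nucleotides, at 0.207, and Cml5, at 0.213. Pearson's r between these genes and the median member, over 5 group means on the log2 scale, was 0.988 for Elp4 and 0.993, 0.996, 0.992 and 0.993 for the others in that order. These genes were chosen for closeness in log2 fold changes that rest on the same group means, so a high r was fixed by that choice. The 5 points share their libraries, and every distance shares the ad libitum group. Acsl5 had means of 1691 normalized counts under caloric restriction, 4026 under rapamycin, 3733 under metformin, 3129 under TM5614 and 3798 in ad libitum livers. Elp4, Psmb9 and Cml5 had low means, 84.2, 67.7 and 67.4 in ad libitum livers and 36.3, 26.9 and 27.7 under caloric restriction. They have no adjusted p for metformin, and none of the 5 genes passed under TM5614.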

How the data were processed

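Poly(A) RNA of 18 whole livers was sequenced. Reads were aligned with HISAT2 2.0.5 to mm10, per the submitters' processing notes; which program counted reads, with what strand setting and annotation, is not given in the sources used here. Used were the authors' group means of normalized counts (a signal with no value per library), their log2 fold changes against ad libitum as deposited, and the adjusted p-values the authors deposited with them. The test behind the p-values was run by the authors and was not repeated. A further 18 columns per library match no sample label and were not used, so depth per library is unknown and no fit across libraries could be made; the planned calls are therefore the authors' own at an adjusted p under 0.05. The design text states 30 mice, while its groups sum to 18.

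From these values were computed percentages of the ad libitum mean, shares of the summed means, levels per kb of exon (GENCODE vM21, mm10), counts of calls and medians, with Python 3.11.15, pandas 2.3.3, numpy 2.4.6 and matplotlib 3.10.9. Counting of calls was checked on simulated data. Medians used genes with a mean of at least 10. Of the 142 list genes, 9 were found under another symbol and 4 not in the table. Named were all members; for each list and intervention up to 4 called genes, by size, with a group mean of at least 50; and the 5 genes nearest the members' median. Members and lists were chosen with earlier results of these data known. Alternatives were other p thresholds, a minimum fold change, centring, shares of the summed means, a pseudocount and leaving out a member.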

Additional observations from a re-analysis of the deposited data

How the results depend on the processing

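Under caloric restriction the count of called genes stayed within 9 to 10 at the other p thresholds and was 8 with an absolute log2 fold change of at least 1, and the median of -1.32 lay between -1.39 and -1.28 under all alternatives run. Under rapamycin the count of 2 became 0 at an adjusted p under 0.01 and 0 with the minimum fold change. Its median of 0.067 became 0.042 with shares of the summed means and 0.030 to 0.104 with 1 gene left out. Under TM5614 the count of 3 became 1 (Acly) at 0.01, 5 at 0.1 and 0 with the minimum fold change, and the median of -0.40 became -0.66 to -0.13 with 1 gene left out. Under metformin no gene passed under any setting; the median of 0.015 became 0.0096 when centred, 0.0018 with shares, and -0.0099 (a change of sign) to 0.041 with 1 gene left out. The cause of these changes was not tested, beyond the fewer genes or stricter limits they were built with. Leaving out single libraries was not run. No paired analysis was possible because no column of values per library matches a sample label.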

Other observations

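The authors' deposited table also holds log2 fold changes for a compound named TM5441, which no sample label used here carries and for which neither a group mean nor an adjusted p was used. The group that this column is set against is not stated. In that column of the authors' deposited table Acss2 had -0.75, Acly -0.57 and Acacb -0.54, and the other 7 synthesis genes lay between -0.31 (Elovl6) and 0.17 (Elovl5).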
